A study of Mus musculus with 4 samples.

Results

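CpGs that lie inside the recognition sequence of the restriction enzyme MspI, CCGG, were examined in mouse E14 embryonic stem cells by methylation-assisted bisulfite sequencing (MAB-Seq). They were taken from the list of one wild-type whole-genome library, called the first here, which gives 5 bases around each plus-strand cytosine, as the rows with C at the second and G at the fifth base. This gave 34031 of 331875 CpGs, 10.3% of the list (95% interval 10.2% to 10.4%), and left 297844 others. The study held 4 libraries: 2 whole-genome libraries of wild-type E14 cells, 1 reduced-representation library of E14 cells with a control shRNA and 1 of E14 cells carrying an shRNA for Tdg. Levels were deposited for the first whole-genome and both shRNA libraries, and p-values for the second whole-genome library. A listed CpG is one that a file contains, and the rule by which CpGs entered the files is not given in the sources used here. The second whole-genome library lists 118502 cytosines on both strands, with a median of 13 reads where these were recovered from the p-values. The control and Tdg shRNA libraries list 12895 and 8948, with no strand, and their depth is unknown. How far Tdg was depleted was not analysed here, and the labels do not say whether the libraries came from separate cultures.

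5-Formylcytosine and 5-carboxylcytosine arise when TET enzymes oxidise 5-methylcytosine, and the glycosylase TDG removes them. In MAB-Seq the methyltransferase M.SssI first protects unmodified CpGs. The level, the percentage of reads converted by bisulfite, then includes the oxidised bases together with cytosines that the enzyme missed. Sequence differences between the cells and mm9, which can also be read as conversion, were not analysed here. MspI cuts CCGG whether or not the inner cytosine is methylated, and the reduced-representation protocol sequences inwards from these cuts. The overhang left by the cut contains the CpG and is filled during end repair; per the labels' protocols, M.SssI was applied again after adapters were attached.

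The list holds 4 sequences with the MspI site, which differ by the base before it. They are shown because every number below is a count or level of one of them, with the site in capitals, 5′ to 3′ on the plus strand of mm9.
site after A: aCCGG
site after C: cCCGG
site after G: gCCGG
site after T: tCCGG
The list had 5636 CpGs of the first kind, 11070 of the second, 10568 of the third and 6757 of the fourth. Of the 16 combinations of the CpG with the bases on each side of it, CCGG was listed most often. Their numbers in the mouse genome were not used, and the values are counts, not enrichments.

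MspI sites were converted to about the same level as other CpGs, with smaller shares at exactly 0 and at 100%. Their median level was 11.4% (11.3% to 11.6%), with quartiles of 5.67% and 19.6%, and that of all other rows was 11.1%, with quartiles of 5.36% and 19.3%. At 0, meaning no conversion above the background that the authors had subtracted, were 6435 MspI sites, 18.9% (18.5% to 19.3%), against 20.2% of the others, a difference of -1.27 percentage points (-1.71 to -0.83). The direction was the same on 14 of 19 autosomes. Without chromosome 1 the shares were 20.02% and 20.8% and the difference -0.74 points (-1.21 to -0.26). Full conversion, a level of 100%, was listed at 317 MspI sites, 0.932% (0.832% to 1.04%), against 1.53% of the others, and was rarer among MspI sites on 19 of 19 autosomes. The share at 100% was the second lowest of the 16 combinations (rank 15 from the highest), whereas the median was the fourth highest, tied with that of TCGG. The share at 0 was in the middle, at rank 8. Levels above 0 but below 5% were listed at 4.73% of MspI sites, against 4.11% of the others. Among the 4 sequences the medians ran from 11.2% after A to 11.9% after G. The share at 0 was 17.4% after A, 20.4% after C, 17.2% after G and 20.4% after T. These intervals cover counting error in 1 library only. CpGs of a library are not replicates, so no p-value was computed between them.

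MspI sites lay near other listed CpGs a little more often than the remaining rows did. Another listed CpG was found within 100 bp of 48.6% of MspI sites (48.1% to 49.1%) and of 45.4% of the others, with a higher share on 19 of 19 autosomes. The median distance to the nearest listed CpG was 109 bp (106 to 112) against 144 bp (141 to 146). Within 10 bp the order was the opposite, with 10.8% of MspI sites and 14.1% of the others. The sequence CCGG itself leaves no room for a CpG 2 bp away, which 3.31% of the others had. From 3 to 10 bp the shares were 10.8% (10.5% to 11.1%) and 12.8% (12.7% to 12.9%), lower for MspI sites on 18 of 19 autosomes. CpGs with G or C on both sides that are not MspI sites, 83044 rows, were closer to their neighbours than either, with a median distance of 69 bp and 56.4% within 100 bp. Of the 25426 windows of 10 kb that held an MspI site, 77.5% held no second. Counted by site, 19696 of the 34031 MspI sites were alone in their window. From one MspI site to the next the median distance was 24639 bp, and 7.33% of such gaps were at most 100 bp.

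Some gaps between successive MspI sites recurred at exactly the same length. A gap of 11 bp was found 127 times on 20 chromosomes or contigs, one of 5 bp 109 times and one of 19 bp 82 times. The gap of 150 bp stood out by its place, with 67 of its 75 occurrences on chromosome 1, between positions 3089716 and 160958431. At 54 of these 67 the first site was gCCGG and the second cCCGG. Over all 67 the median levels were 16.9% and 14.8%, and 0 of the first and 0 of the second sites were listed on the plus strand in the second whole-genome library, where 6.3% of all rows and 2.65% of the MspI sites of chromosome 1 were listed. At the latter share, 67 pairs are too few to set a count of 0 apart.

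Where 2 listed CpGs were at most 4 bases apart, their 5 bases overlapped and were joined into a longer sequence. This was possible for 483 MspI sites with a following CpG outside chromosome 18, which gave 70 different sequences. The most frequent 5 are shown, since the leading ones share the place on chromosome 1 with the gap of 150 bp, with the MspI site and the next CpG in capitals.
found 70 times: gCCGGgCGt
found 37 times: gCCGGgCGg
found 24 times: cCCGGCGc
found 21 times: gCCGGCGc
also found 21 times: tCCGGCGt
Of the 70 occurrences of gCCGGgCGt, 57 were on chromosome 1 and the others on 4 further chromosomes. The median level was 24.9% at its MspI site and 23.2% at its second CpG, and 0 of the 70 MspI sites were listed on the plus strand in the second library, a number of sites too small to differ visibly from the 2.65% on chromosome 1. Of the 37 occurrences of gCCGGgCGg, 18 were on chromosome 1. The other three were spread over 13 chromosomes each, with 2, 2 and 1 on chromosome 1. Repeat annotation was not used here.

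Chromosome 1 held more MspI sites among its listed CpGs than any other autosome. They were 4003 of 29040 rows, 13.8% (13.4% to 14.2%), against 9.36% (chromosome 3) to 10.97% (chromosome 10) on the other 18 autosomes and 10.4% on X. On unplaced contigs the share was 2.55%, or 47 of 1841 rows. The plot by chromosome shows chromosome 1 apart from the rest. Along chromosome 1 the share was 17.3% (16.04% to 18.6%) in the first 20 Mb, 18.5% (16.6% to 20.5%) from 100000001 to 120000000 and 9.16% (8.16% to 10.2%) from 180000001, the last interval. MspI sites of chromosome 1 had a median level of 15.1% (14.6% to 15.7%), and the other autosomes had medians of 10.1% to 12.1%. Listed at 0 were 10.5% of them, against 16.4% to 23.2%. The remaining CpGs of chromosome 1 also had a higher median, 13.9% against 10.9% off chromosome 1.

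**Figure D1:**
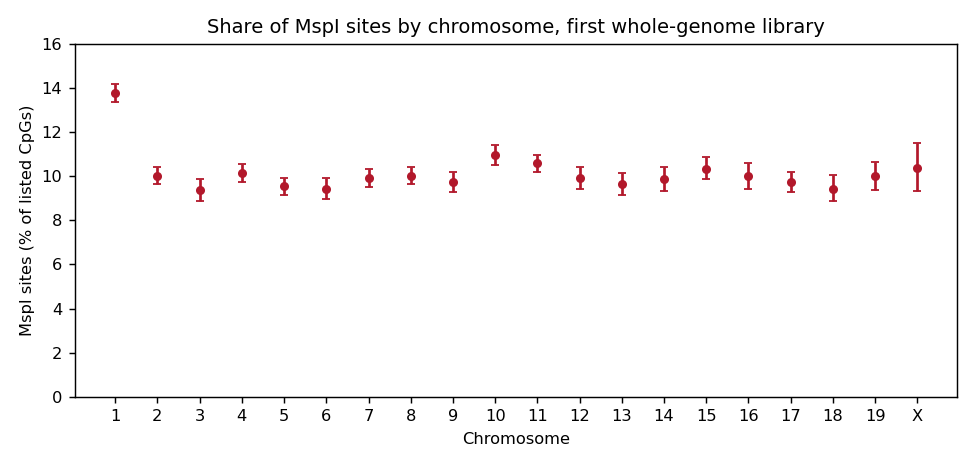
Share of MspI sites among the CpGs listed for each chromosome in the first whole-genome library, in percent (points), with exact 95% binomial intervals (bars). Chromosome 1 is at 13.8%, and the other autosomes lie between 9.36% and 10.97%.

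The whole list of the first library was also fuller on chromosome 1. This chromosome held 8.75% of its rows, 5.89% of those of the second whole-genome library, 5.90% of the control shRNA and 5.24% of the Tdg shRNA library. Sequence was deposited for the first library alone, so the share of MspI sites could not be computed in the others. What sets chromosome 1 apart was not tested.

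The 5 windows of 10 kb with the most MspI sites included 3 on chromosome 1. The window on chromosome 17 from 39980001 to 39990000 held 22 among 128 listed CpGs, with levels from 0 to 100% and a median of 1.49%. It was also dense elsewhere, with 130 cytosines in the second whole-genome library, 30 in the control and 25 in the Tdg shRNA library. Chromosome 1 from 33460001 to 33470000 held 18 among 41, with levels from 1.24% to 24.5% and a median of 7.84%. The windows from 25170001 to 25180000 and from 48600001 to 48610000 on chromosome 1 held 14 each, with medians of 7.16% and 7.63%. Chromosome 10 from 85690001 to 85700000 held 14 among 33, with a median of 16.96%. The last 4 windows held 0 listed cytosines in the second whole-genome library and 0 in either shRNA library. With 26 to 41 rows each, and 0.254% and 0.32% of all rows listed in the shRNA libraries, a count of 0 there carries little information.

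MspI sites were listed less often than other CpGs in the second whole-genome library, on either strand. On the plus strand, at the same base, 1651 or 4.85% (4.63% to 5.09%) were listed, against 6.46% of the others and 6.3% of all rows. The ratio was 0.751 (0.713 to 0.789) and the share was lower on 19 of 19 autosomes. The cytosine of the minus strand, 1 base further on, was listed for 578 MspI sites, 1.70% (1.56% to 1.84%), against 2.29% of the others and 2.23% of all rows. Here the ratio was 0.742 (0.681 to 0.808), and the share was lower on 16 of 19 autosomes. Without sites at 0 it was 0.859% (0.753% to 0.975%) against 0.961%, and the interval then covered the value of the others. Both strands were listed at 37 MspI sites, 0.109% (0.0766% to 0.150%), against 0.190% of the others. Other CpGs between G or C were at 6.53% (plus) and 2.61% (minus). The sequences differed among themselves, with plus-strand shares of 5.86% after A and 5.72% after G, and of 4.02% after C and 4.01% after T. On chromosome 1 the plus-strand share was 2.65% (2.17% to 3.19%) for MspI sites and 4.49% for the others, and elsewhere 5.15% and 6.64%.

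The sets of CpGs lay apart mainly above 20% in the first library. From 5% to 10% in the first library, 5.78% of MspI sites (5.23% to 6.37%) and 6.11% of the others were listed on the plus strand, with overlapping intervals. From 20% to 50% the shares were 5.00% (4.49% to 5.55%) and 8.39% (8.16% to 8.63%). From 50% to 90% they were 5.86% (4.50% to 7.48%) and 18.1% (17.4% to 18.8%), and 22.0% for other CpGs between G or C. Without chromosome 1 they were 7.01% (5.32% to 9.02%) and 20.6%. Between 90% and 100% the shares were 9.45% (4.98% to 15.9%) and 23.5% (21.6% to 25.4%). At 100%, 18.6% of MspI sites (14.5% to 23.3%) and 23.1% (21.9% to 24.4%) of the others were listed, with overlapping intervals. Unlike the other CpGs, MspI sites thus showed no rise in listing between 10% and 90%.

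**Figure D2:**
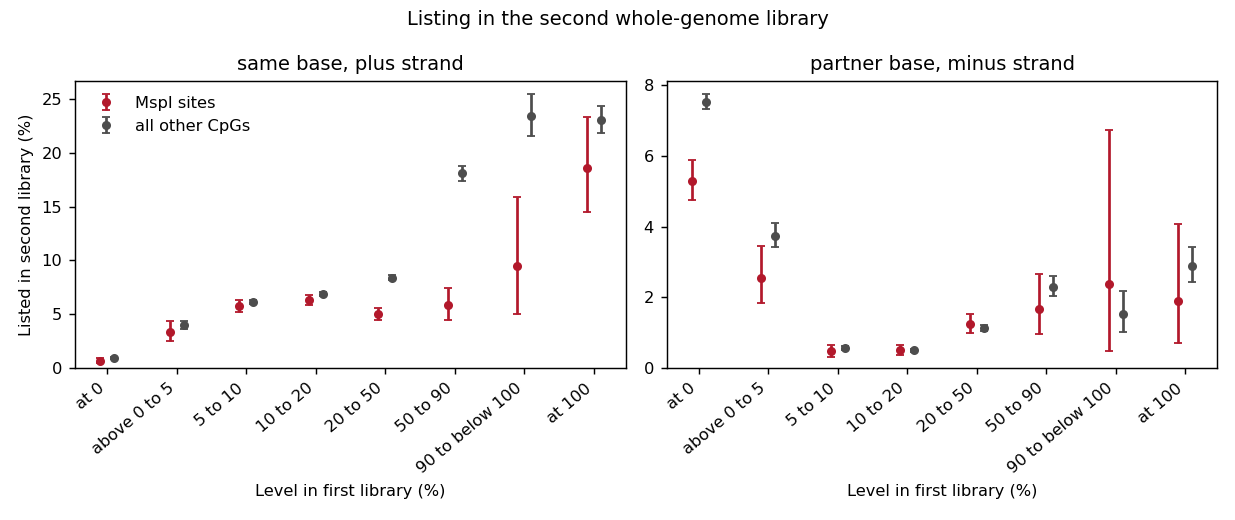
Share of CpGs of the first whole-genome library that the second one lists, in percent, by level in the first library, for the same base (left) and the minus-strand partner (right). Points are MspI sites or all other CpGs and bars exact 95% intervals; on the left MspI sites stay between 5.00% and 6.29% from 10% to 90%, where the other CpGs climb to 18.1%.

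On the minus strand listing was highest for CpGs at 0, lowest from 5% to 20% and again higher above 20%. MspI sites at 0 in the first library, which reports plus-strand cytosines, had the minus-strand partner listed in 5.30% of cases (4.76% to 5.87%), against 7.54% (7.33% to 7.75%) of the other CpGs at 0. From 10% to 20% the shares were 0.501% and 0.494%, and from 50% to 90% they were 1.66% (0.970% to 2.64%) and 2.30% (2.03% to 2.59%). Of the 578 MspI sites with a listed minus-strand partner, 59.0% (54.9% to 63.0%) were at 0 in the first library. Of the 6815 other CpGs with one, 66.5% (65.3% to 67.6%) were at 0.

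Where MspI sites were shared with the second library, fewer of the calls there were very strong. A p-value at or below 1e-12 was deposited for 9.21% (7.86% to 10.7%) of the shared plus-strand MspI sites, against 22.4% (21.9% to 23.0%) of the other shared CpGs. Reads recovered from the p-values, at 1431 of the 1651, had a median depth of 14 (quartiles 11 and 20), and those at the others of 15. The median converted fraction was 27.3% in both. Recovery fails for the smallest p-values, so these medians leave out the strongest calls of both sets, and more of the others, where it succeeded at 70.9% against 86.7%.

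Sites of the reduced-representation libraries were unevenly spaced around MspI sites, with a lower density from 51 to 80 bp than nearer or further away. In the control shRNA library, positions 1 to 50 bp from an MspI CpG held 904 pairs of MspI CpG and listed site, or 26.6 per 10000 MspI sites and 10 positions (24.9 to 28.4). The other CpGs had 14.9 (14.5 to 15.3), a ratio of 1.78 (1.66 to 1.92). From 51 to 80 bp the density around MspI sites was 11.1 and around the others 14.7, a ratio of 0.756 (0.657 to 0.866). From 81 to 150 bp it was again higher at MspI sites, with 20.3 against 13.0 and a ratio of 1.57 (1.46 to 1.68). The limits of these ranges match the shape of the profile in bins of 10 bp. Their ratios and intervals therefore describe that profile and are not an independent comparison. Of the 904 pairs, which involve 859 different listed sites, 471 lay upstream and 433 downstream of the MspI CpG.

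The Tdg shRNA library, whose list is shorter, also had a ratio below 1 from 51 to 80 bp and above 1 on either side of that range. Its ratios were 1.27 (1.16 to 1.39) from 1 to 50 bp, 0.643 (0.545 to 0.753) from 51 to 80 bp and 1.13 (1.04 to 1.23) from 81 to 150 bp. Within 50 bp, 256 pairs lay upstream and 318 downstream, with 549 different listed sites or 6.14% of the list, against 6.66% in the control library. CpGs between G or C that are not MspI sites showed no such step in either library. In the control library their density was 25.1, 23.0 and 21.4 in the 3 ranges, and in the Tdg shRNA library 17.7, 15.6 and 14.8. Within 50 bp the intervals of MspI sites and these CpGs overlapped. From 51 to 80 bp in the control library they did not, with 9.72 to 12.7 around MspI sites and 21.7 to 24.4 around the others. From 81 to 150 bp the MspI densities were 20.3 in the control and 13.0 in the Tdg shRNA library, below those of the CpGs between G or C. Whether the libraries differ from each other could not be tested, with 1 library in each group.

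**Figure D3:**
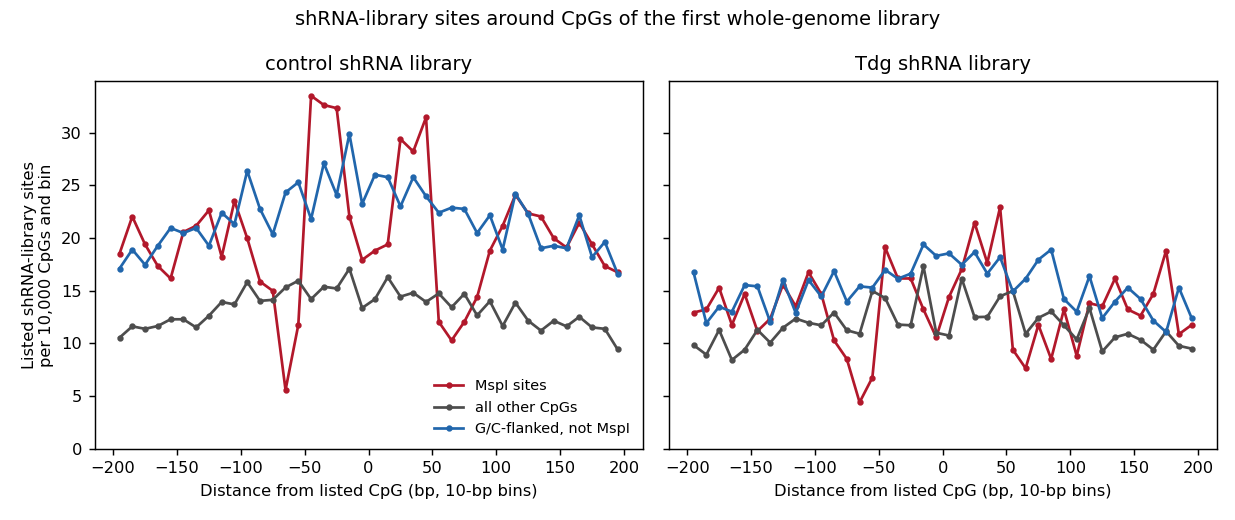
Listed shRNA-library sites per 10000 CpGs in bins of 10 bp, by distance from CpGs of the first whole-genome library, without sites on the CpG itself, for the control (left) and Tdg shRNA (right) libraries. Around MspI sites the line is high in the bins centred 25 to 45 bp away on either side and lower nearer the CpG. It drops from 51 to 80 bp and rises again, while the lines of other CpGs have no such step.

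Counted per MspI site, and with sites on the CpG itself included, 1165 or 3.42% (3.23% to 3.62%) had a control shRNA site within 100 bp, against 2.56% of the others, on 19 of 19 autosomes. For the Tdg shRNA library the shares were 2.38% (2.22% to 2.55%) and 2.03%, and the MspI share was higher on 16 of 19 autosomes. Within 500 bp they were 10.5% and 7.24% in the control and 7.85% and 5.75% in the Tdg shRNA library. Other CpGs between G or C exceeded the MspI sites in both libraries, with 4.16% and 3.07% within 100 bp. On chromosome 1, 2.05% of MspI sites (1.63% to 2.54%) had a control shRNA site within 100 bp, and 3.61% elsewhere. The other CpGs were also lower on chromosome 1, with 1.91% (1.74% to 2.09%) against 2.62% elsewhere. In the Tdg shRNA library the MspI values were 0.949% (0.673% to 1.30%) and 2.57%. Those of the other CpGs were 1.31% (1.18% to 1.46%) and 2.10%.

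At the MspI CpG itself, in contrast, listing was rarer than at other CpGs. Either cytosine of the CpG was listed in the control shRNA library for 33 MspI sites, 0.0970% (0.0668% to 0.136%), against 0.272% of the others and 0.254% of all rows. The ratio was 0.357 (0.244 to 0.505). In the Tdg shRNA library, 38 MspI sites or 0.112% (0.0790% to 0.153%) were listed, against 0.344% of the others and 0.32% of all rows, a ratio of 0.324 (0.228 to 0.448). Both shares were lower on 18 of 19 autosomes. Of the 773 MspI sites with another control shRNA site 1 to 50 bp away, 11 were listed themselves, 1.42% (0.712% to 2.53%), against 5.75% (5.03% to 6.53%) of 3810 other CpGs with such a neighbour. In the Tdg shRNA library 12 of 512 were, 2.34% (1.22% to 4.06%), against 13.1% (11.9% to 14.4%). For other CpGs between G or C the shares were 3.77% (2.94% to 4.76%) and 3.55% (2.61% to 4.71%), and in the Tdg shRNA library the latter interval overlapped that of the MspI sites.

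The lower listing held for calls below 90%, whereas calls near full conversion were more frequent at MspI sites than at other CpGs. Below 90% in the control shRNA library, 8 MspI sites and 728 other CpGs were listed, a ratio of 0.0962 per CpG (0.0414 to 0.191). At 90% or more, 25 MspI sites and 82 others were listed, a ratio of 2.67 (1.63 to 4.22). The Tdg shRNA library gave 6 and 890 below 90%, a ratio of 0.0590 (0.0216 to 0.129), and 32 and 135 at 90% or more, a ratio of 2.07 (1.36 to 3.07). Outside unplaced contigs and the 27 dense windows of 10 kb, which hold at least 20 CpGs listed in both whole-genome libraries, the ratios were 0.0925 and 0.0458 below 90% and 2.71 and 2.62 at 90% or more. The division at 90% was chosen after the values had been seen.

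The shared MspI sites thus had a median level of 100% in both shRNA libraries. In the control library, levels ran from 5.70% to 100%, and 25 of 33 were at 90% or more, 75.8% (57.7% to 88.9%). Shared CpGs of other sequence had a median of 10.9% there, with 10.1% (8.13% to 12.4%) at 90% or more. In the Tdg shRNA library the MspI sites ran from 15.4% to 100%, with 32 of 38 at 90% or more, 84.2% (68.7% to 94.0%). The other shared CpGs had a median of 13.8% and 13.2% (11.2% to 15.4%) at 90% or more.

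The same MspI sites were much more spread in the first whole-genome library. This library differs from the shRNA libraries in both cells and library type, and these cannot be told apart. For the 33 shared with the control library the median in the first whole-genome library was 32.1% (quartiles 9.48% and 67.9%), from 0 to 100%, with 7 at 0. For the 38 shared with the Tdg shRNA library it was 36.1% (13.3% and 69.9%), with 5 at 0. The level was higher in the shRNA library at 26 of 33 and 33 of 38 sites. Among the other shared CpGs it was higher at 472 of 810 (control) and 684 of 1025 (Tdg). All were selected by being listed in the shRNA library, so neither these counts nor the spread are an independent comparison. The first library gives the plus-strand cytosine alone, while the minus-strand cytosine was listed at 16 of the 33 CpGs in the control and 18 of the 38 in the Tdg shRNA library. The pairs therefore do not all compare the same base.

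**Figure D4:**
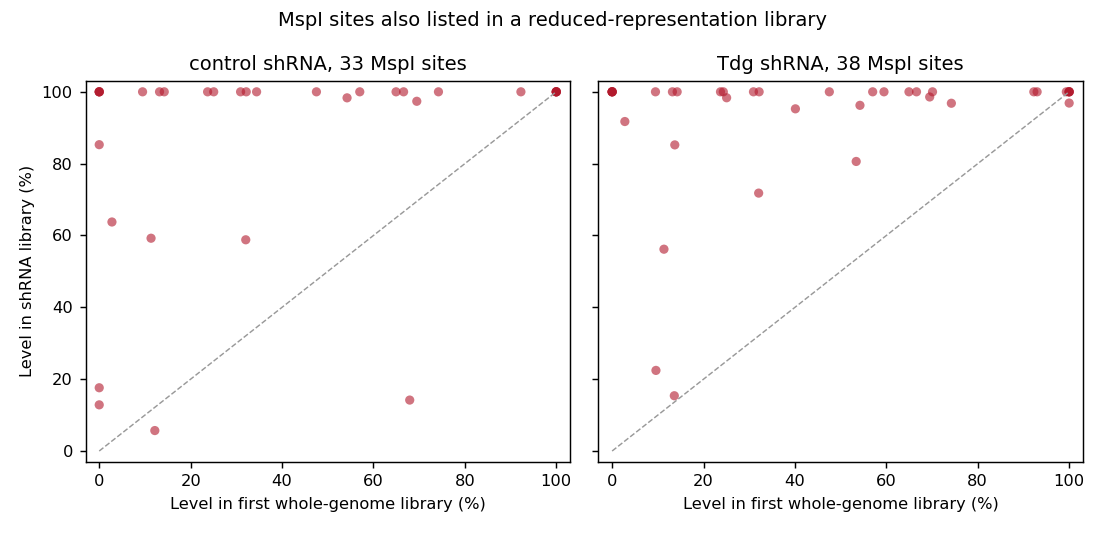
Level of each MspI site in the first whole-genome library (horizontal, percent) and in the control or Tdg shRNA library (vertical, percent; the higher cytosine where both are listed), 1 point per site, with the line of equal levels dashed. Points gather at 100% on the vertical axis at every level of the horizontal one.

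Most MspI sites listed in one shRNA library were also in the other, and so were other CpGs near full conversion in the control library. Of the 44 listed in either, 27 were in both, 6 in the control library alone and 11 in the Tdg shRNA library alone. Of all MspI sites 0.0793% were in both, and of all other CpGs 0.0813%, a ratio of 0.976 (0.630 to 1.46). The 27 MspI sites in both were 81.8% (64.5% to 93.0%) of the control and 71.1% (54.1% to 84.6%) of the Tdg shRNA sites. The corresponding shares of other CpGs of any level were 29.9% (26.7% to 33.2%) and 23.6% (21.0% to 26.3%). At 90% or more in the control library, 24 of 25 MspI sites, 96% (79.6% to 99.9%), and 92.7% (84.8% to 97.3%) of 82 other CpGs were also in the Tdg shRNA library, with overlapping intervals. At 90% or more in the Tdg shRNA library, 25 of 32 MspI sites, 78.1% (60.03% to 90.7%), and 50.4% (41.6% to 59.1%) of 135 others were also in the control library. Below 90% only 8 and 6 MspI sites were available. The 27 cytosines listed in both had a median difference of Tdg minus control shRNA of 0 percentage points (0 to 0), since 19 were at 100% in both. Of the rest, 2 were higher and 6 lower with Tdg shRNA. Only 2 were below 90% in both, too few for a comparison. At the 246 cytosines of other CpGs listed in both, the median difference was -1.90 points (-3.02 to -0.0877). Of these, 39 were at 100% in both, 65 were higher and 142 lower with Tdg shRNA. Of the 44 MspI sites, 21 were also listed in the second whole-genome library on either strand, 47.7% (32.5% to 63.3%), against 38.2% (35.8% to 40.7%) of the other CpGs, with overlapping intervals.

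Listed in all 4 libraries were 11 of the 34031 MspI sites and 120 of the 297844 other CpGs. The 11 MspI sites lay on assembled chromosomes, and the 10 with the highest level in the first library are given here with their mm9 positions. No gene annotation of that build was used here.
The gCCGG site at position 93296955 of chromosome 10 was at 100% in the first library and in both shRNA libraries, with a deposited p-value of 0 in the second library.
The cCCGG site at 114567195 of chromosome 3 had the same values.
The aCCGG site at 39984399 of chromosome 17 was at 100% in the first library, and its minus-strand cytosine was at 100% with control and 96.9% with Tdg shRNA. It lies in the densest window named above, and 37 other listed CpGs were within 1000 bp.

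Another 4 sites were intermediate in the first library and near 100% in the shRNA libraries. The cCCGG site at 77849199 of chromosome X was at 74.2%, then at 100% with control and 96.8% with Tdg shRNA, and had no other listed CpG within 1000 bp. The gCCGG site at 127607829 of chromosome 5 was at 69.5%, then at 97.4% and 98.6%, with a p-value of 4.10e-12 in the second library. The tCCGG site at 4188883 of chromosome 2 was at 57.0%, and its minus-strand cytosine was at 100% in both shRNA libraries. The second library lists that cytosine with a p-value of 0.000761, from which 5 converted of 20 reads were recovered. The gCCGG site at 129979396 of chromosome 10 was at 47.5% and at 100% in both shRNA libraries, with a p-value of 3.17e-13.

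The last 3 had the lowest levels in the first library. The gCCGG site at 98506660 of chromosome 2 was at 32.1%, and it alone of the 10 stayed below 90% in the shRNA libraries. Its minus-strand cytosine was at 58.8% with control and 48.2% with Tdg shRNA, and its plus-strand cytosine, listed with Tdg shRNA, at 71.8%. It lies in a dense window. Chromosome 11 had aCCGG sites at 3051715 and 3051740, at 30.9% and 25.1% in the first library. The former was at 100% in both shRNA libraries, the latter at 100% with control and 98.3% with Tdg shRNA. At 3051740 the second library had 7 converted of 54 reads on the plus strand. At both, the minus-strand cytosine was listed in the second library as well.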

How the data were processed

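MAB-Seq lists of 4 libraries of E14 cells were used. The submitters' processing notes name Bismark 0.10.1, CASAVA 1.8 and mm9; the sources used here give no calling rule, filter or read number. The deposited levels of the first whole-genome and both shRNA libraries are in percent; 100% of values above 0 equalled a fraction of 3 or 4 decimals from which a background of 3%, 2.9% and 3.3% was subtracted, rescaled to 100% (tolerance 1e-06 in the last decimal). The second whole-genome library was deposited as p-values, from which total and converted reads were recovered at 85.2% of sites (binomial upper tail, background 3.8%, at most 400 reads, p above 1e-07, relative tolerance 1e-08; median 13 reads). The depth of the other libraries is unknown.

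Lists were joined by position, with the minus-strand partner 1 base downstream; shRNA-library strand is unknown, so either cytosine counted. Positions are column ends of the deposited intervals, 1-based. Computation used Python 3.11.15, pandas 2.3.3 and SciPy 1.17.1, and was tested on simulated data. Shares have exact 95% binomial intervals, differences Newcombe's, ratios exact conditional and medians order-statistic intervals; all cover counting error only, and PCR copies were not told apart. With 1 library per shRNA group and different units in the whole-genome libraries, no p-value was computed. Named were the 10 highest MspI sites listed in all 4 libraries and the 5 windows of 10 kb with the most; sequences, gaps and chromosome 1 were singled out after their values were seen. Joined sequences from chromosome 18 are not reported here; its sites are used in all counts. The members and comparisons were chosen with earlier results of these data known.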

Additional observations from a re-analysis of the deposited data

How the results depend on the processing

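Of 41 alternatives to 10 results, 19 stayed inside the interval of the value reported and 22 did not. Alternatives with another distance, a p-value limit or the plus-strand cytosine alone measure another quantity. A moved value there carries little information. In 40 the MspI sites stayed on the same side of the other CpGs. The exception was the Tdg minus control shRNA difference below 90% in both, -7.13 points over 2 cytosines, against -3.96 for other CpGs. Without sites at 0 the median level was 13.8%, neighbours within 100 bp 47.98%, plus-strand listing 5.82% and minus-strand listing 0.859% (0.753% to 0.975%) in the second library, where the interval covers the 0.961% of other CpGs, so that the lower minus-strand listing is not kept without sites at 0, and shRNA sites within 100 bp 3.06% (control) and 2.07% (Tdg). Without chromosome 1, an alternative added after its share was seen, the median was 11.1%, the share at 0 20.02%, neighbours 47.7%, plus-strand listing 5.15% and Tdg shRNA sites within 100 bp 2.57%. With second-library p-values of at most 0.001, listing was 2.53% (plus) and 0.808% (minus). Listed neighbours were 36.2% within 50 bp and 71.9% within 1000 bp. Control shRNA sites were 2.34% within 50 bp and 10.5% within 500 bp, Tdg shRNA sites 1.58% and 7.85%. With the plus-strand cytosine alone, 0.04995% (control) and 0.0705% (Tdg) of MspI sites were listed. Assembled chromosomes without dense windows moved none of the 10 MspI values, but some values of the other CpGs changed. Their share listed in the Tdg shRNA library fell from 0.344% to 0.225%. Their median difference of Tdg minus control shRNA went from -1.90 to -0.0877 points.

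Leaving out a replicate gave no value, since the MspI sites are defined in the first whole-genome library and the second has another unit. No paired analysis was possible because no result comes from a test over replicates. Unknown depth limits every share: the files do not tell a cytosine that was covered and not called from one that was not covered.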

Other observations

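Some other contexts, among them TCGA, were also more frequent on chromosome 1 of the first whole-genome library. TCGA made up 1651 of its 29040 rows, 5.69% (5.42% to 5.96%), against 3.35% (chromosome 17) to 4.30% (chromosome 13) on the other autosomes. Its median level was 17.2% on chromosome 1 and 11.03% elsewhere, and 2.67% (1.94% to 3.56%) and 5.46% (5.04% to 5.89%) of these CpGs were listed on the plus strand in the second library. ACGC (7.20% against 5.80%), GCGT (8.64% against 8.03%) and TCGG (6.63% against 6.14%) were also more frequent on chromosome 1 than off it. The remaining contexts were less frequent there, among them ACGT (4.04% against 5.41%) and GCGC (7.97% against 8.34%), which are palindromic like TCGA. The context TCGA was singled out after the values had been seen.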
